A study of Mus musculus with 18 samples.

Results

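Cytochrome P450 enzymes of families 1 to 3 carry out the first oxidation of most drugs, dietary compounds and pollutants that reach the liver, and some of them also act on steroids, fatty acids and vitamin D. They are heme proteins of the endoplasmic reticulum that take electrons from P450 oxidoreductase and, for some reactions, from cytochrome b5. Their transcription in hepatocytes is set by the nuclear receptors CAR and PXR, by the aryl hydrocarbon receptor, by factors such as HNF4A, and by growth hormone, which makes several members differ between female and male mouse liver. Many sit beside one another in tandem clusters of closely related copies.

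The members described here are the genes whose mouse symbol names a P450 of family 1, 2 or 3, pseudogenes left out, and that reached 10 counts in 50% or more of the mice of either genotype. Of 60 such genes listed, 45 passed, out of 13353 tested and 22524 listed genes in all. The subfamily with most members was Cyp2c, with 13 of 15 listed, followed by Cyp3a with 8 of 9, Cyp2d with 5 of 8, Cyp2a with 4 of 4, Cyp2b with 3 of 5, Cyp2j with 3 of 8 and Cyp1a with 2 of 2. Cyp1b1, Cyp2e1, Cyp2f2, Cyp2g1, Cyp2r1, Cyp2s1 and Cyp2u1 stood alone in their subfamilies. The 15 genes that did not pass were Cyp2b19, Cyp2b23, Cyp2c65, Cyp2c66, Cyp2d11, Cyp2d12, Cyp2d34, Cyp2j7, Cyp2j8, Cyp2j11, Cyp2j12, Cyp2j13, Cyp2t4, Cyp2w1 and Cyp3a57.

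Whole-liver RNA came from 10 female Rps2-A226Y mice and 8 female wild-type (WT) mice, with 1 library per mouse and every animal 15 months old. The A226Y mice carried, on 1 allele, a substitution in Rps2, a protein of the small ribosomal subunit, that is meant to lower translational accuracy, and the allele was switched on by Cre recombinase under the CMV promoter. Excision was partial, so their tissue was a mosaic that also held cells in which the targeted allele stayed silent and Rps2 came from the other allele alone, and the WT mice carried the CMV-Cre transgene as well. All were on a C57BL/6 background. The authors deposited a whole-number read count per gene and mouse. Levels are given as CPM, counts scaled to library size with the TMM factors of edgeR, and the genotypes were compared with edgeR's two-sided quasi-likelihood test. Adjusted p-values are Benjamini-Hochberg values over all 13353 genes, and 0.05 was the threshold. Fold changes are A226Y against WT. Exact permutation tests, also two-sided, covered all 43758 ways to divide the 18 mice by 10 and 8.

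Total counts ranged from 23850565 to 62126131 in A226Y mice and from 25869192 to 34918732 in WT mice, so the spread between mice outweighs counting error except in the lowest members. Rps2 summed over both alleles was lower in each A226Y mouse than in any WT mouse (log2 fold change −0.73, standard error (SE) 0.11, adjusted p = 0.000772). The hepatocyte markers Alb, Apoa1, Ttr, Tat, Cps1 and Ass1 together took 70362 to 141463 CPM in A226Y mice and 81750.5 to 167740 CPM in WT mice. Of these 6, 2 (Tat and Cps1) were higher in A226Y, where 7.27% of all genes tested were higher. Markers of kidney stayed at or below 0.128 CPM in sum, with Slc12a1 at 0 in every mouse, and those of pancreas at or below 7.20 CPM. Of the intestinal markers, Lct and Sis were at 0 in every mouse and Apoa4, which liver also makes, was higher in A226Y. Of the other liver cell types, 1 of 6 Kupffer cell and macrophage markers (Clec4f) and 2 of 6 stellate cell markers (Col1a1 and Col3a1) were lower. Over all genes tested, 7.03% were lower. None of the markers of cholangiocytes, lymphocytes or sinusoidal endothelium passed the threshold. The part of these shifts in the results that follow was not tested. In whole liver, fewer cells of a type and less RNA per cell cannot be told apart.

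Sequence shows first why the Cyp3a copies have to be read together. The coding sequences of Cyp3a41a and Cyp3a41b, both of 1512 bases, shared 1510 bases (99.87%), and 93.5% of all 50-base windows in the Cyp3a41b transcript occurred word for word in the Cyp3a41a transcript. For Cyp3a41a, 98.6% of such windows occurred in another gene and 93.7% in Cyp3a41b. In Cyp3a44 the share found in any other gene was 26.5%, in Cyp3a11 14.8% and in Cyp3a16 10.7%, and in Cyp3a13 it was 0.0%. Short reads can therefore be assigned to Cyp3a16, Cyp3a44 and Cyp3a11 at most positions, but to Cyp3a41a against Cyp3a41b at few. The 30 coding bases that hold most differences among the 5 copies, positions 615 to 644 of the coding sequence in exon 7 of 13, are printed from the GRCm38 reference with GENCODE M21 gene models, all on the minus strand of chromosome 5 and read 5′ to 3′ along the gene, with capitals at positions where any of the 5 differ.
Cyp3a41a, chr5:145708483-145708512: gAaAgccaaAGGgAttttaagaGttgaCtT
Cyp3a41b, chr5:145573069-145573098: gAaAgccaaAGGgAttttaagaGttgaCtT
Cyp3a44, chr5:145794345-145794374: gGaAgccaaAAAgTttttaagaGttgaCtT
Cyp3a16, chr5:145455500-145455529: gAaTgccaaGAAgGttttaagaTttgaTtA
Cyp3a11, chr5:145868562-145868591: gAaAgccaaAAAgCttttaagaTttgaTtT

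Even this stretch is the same in Cyp3a41a and Cyp3a41b. Their coding sequences differed at 2 positions, counted from 1 at the first base of the start codon and written with the Cyp3a41a base first: G120A in exon 2 and G336T in exon 5. The stretch around G336T, positions 322 to 351, is shown because it is one of the few from which a read can tell the pair apart, again with capitals at positions that vary among the 5 copies.
Cyp3a41a, chr5:145709126-145709155: tttGGcccagtgggGataatgagtaaaGcT
Cyp3a41b, chr5:145573712-145573741: tttGGcccagtgggTataatgagtaaaGcT

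The start-site windows of the members were searched next, because several receptors that act on P450 genes have known binding letters. RefSeq windows on GRCm38.p6, from 250 bases before to 50 after a start, were matched for 40 of the 45 members (42 windows), and Cyp2c23, Cyp2c54, Cyp2d22, Cyp2g1 and Cyp2u1 had none. The HNF4A letters CAAAGTCCA, searched on both strands, stood in 9 member windows (21.4%) and in 0.475% of all 32851 windows. They belonged to Cyp2c40, Cyp2c67, Cyp2c68, Cyp2c69 and Cyp2c70 and to Cyp3a11, Cyp3a16, Cyp3a41a and Cyp3a41b, which are copies of one another within each cluster and so are not independent. The 30 bases around the match are printed for the Cyp3a copies, on the minus strand of chromosome 5, with the motif in capitals.
Cyp3a16, chr5:145469803-145469832: aagagacgacCAAAGTCCAggtgatgcagg
Cyp3a41a, chr5:145720212-145720241: aagagacgacCAAAGTCCAggtgatgcagg
Cyp3a41b, chr5:145584806-145584835: aagagacgacCAAAGTCCAggtgatgcagg
Cyp3a11, chr5:145879944-145879973: aagagagtacCAAAGTCCAgtgatgcaaag

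The match began at position −99 from the start in Cyp3a16, −95 in Cyp3a41a and Cyp3a41b, and −109 in Cyp3a11. The same 30 bases therefore stood before Cyp3a16, Cyp3a41a and Cyp3a41b, and a close relative of them before Cyp3a11. Along their whole windows Cyp3a41a and Cyp3a41b had the same base at 292 of 300 positions, and Cyp3a41a and Cyp3a44 at 277, although the window of Cyp3a44 did not hold the 9 letters.

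The core letters of the aryl hydrocarbon receptor, GCGTG, stood in the windows of 6 members (14.3% of member windows, against 32.4% of all windows): Cyp1a1, Cyp1b1, Cyp2b10, Cyp2c68, Cyp2j9 and Cyp2r1. They were absent from the window of Cyp1a2, which says only that these letters are not in that window. The nuclear receptor letters AGGTCA stood in the windows of 14 members (35.7% of member windows, against 16.3% of all). AGTTCA stood in those of 7 members (16.7% against 14%), and the PAR bZIP letters TTATGTAA in 0 (0.938% of all windows). Members with AGGTCA include copies of one another, such as Cyp2a4 with Cyp2a5 and Cyp2b9 with Cyp2b13, so they are not independent either. The AGGTCA match of Cyp2c39, at chr19:39347309-39347338, lay in a window away from the GENCODE start of that gene at 39510862. The stretches below show these letters in Cyp1a1, the textbook target of the aryl hydrocarbon receptor, and in Cyp2b10, the called higher member that held them. GCGTG is not a CAR site. The window of Cyp2b10 held neither AGGTCA nor AGTTCA, which says only that these letters are not in that window. Sequence farther from the start was not searched. Cyp2b10 had 2 matches, at position −9 and, on the opposite strand, at −101. All are printed along the plus strand, with GCGTG or its reverse complement in capitals.
Cyp1a1, chr9:57697547-57697576: tcagataaggagGCGTGgccaacagacaca
Cyp2b10 at −101, chr7:25897545-25897574: gctatggctcctCACGCtctggacaatgag
Cyp2b10 at −9, chr7:25897637-25897666: gatcctgctggaGCGTGgagtgaagtcaac

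Of the 45 members, 2 were higher in A226Y mice, which is 4.44% of the members, where 7.27% of all genes tested were higher. A further 9 were lower, which is 20% of the members, where 7.03% of all genes tested were lower. Of these 9, Cyp3a41b met the count filter only through the WT mice, in which it is high, so its call is not independent of the filter. Among the 44 members that met it in both genotypes, 8 were lower (18.2%, where 6.98% of all such genes were lower) and 2 were higher. Both directions together give 11 members, where 14.3% of all genes passed. The median log2 fold change of the members was −0.34, and 33 of the 45 (73.3%) had a value below 0, while over all genes the median was −0.0044 and 51.0% were below 0. The 9 lower members were Cyp1a2, Cyp2c23, Cyp2c29, Cyp2d26, Cyp2d40, Cyp2f2, Cyp2j5, Cyp2j6 and Cyp3a41b, and the 2 higher were Cyp2b10 and Cyp2d9. In no member were the groups fully apart, where 0.637% of all genes had groups that did not overlap. When 4 surrogate variables were added to the model, 0 members passed, and so did only 50 of all genes (0.374%), so no call of a member held in that fit. At an unadjusted p under 0.05 that fit gave 7 members. The 11 called members kept their direction in it but moved towards 0: Cyp1a2 stood at −0.84, Cyp2b10 at 0.95, Cyp2c23 at −0.47, Cyp2d40 at −0.44, Cyp2c29 at −0.29, Cyp2d26 at −0.20, Cyp2j5 at −0.15, Cyp2j6 at −0.11, Cyp2d9 at 0.11, Cyp2f2 at −0.016 and Cyp3a41b at −0.64. Without WT animal 6, 14 members were lower, and over all genes the share that was lower rose as well, to 9.27%. Without A226Y animal 5, 14 members were lower, where the share over all genes was 7.43%.

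**Figure D1:**
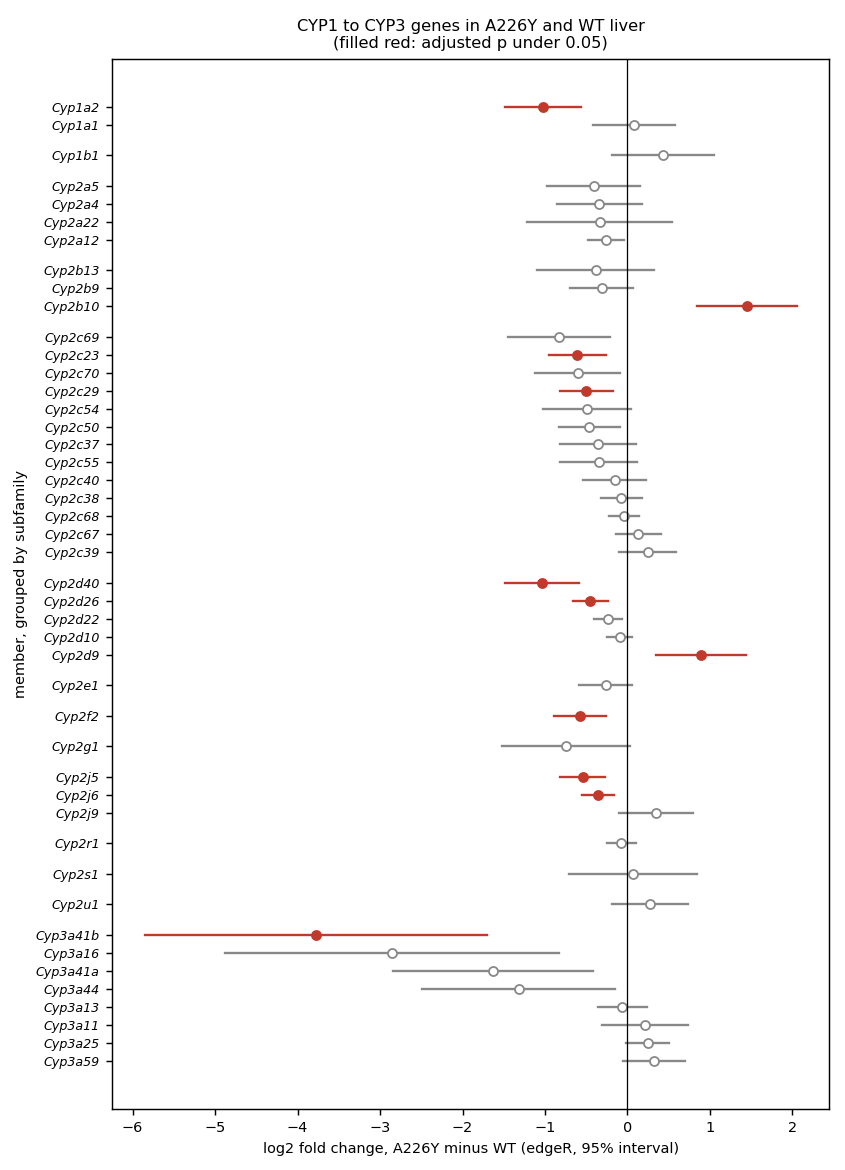
Log2 fold change (A226Y minus WT, horizontal axis) of the 45 members, grouped by subfamily, with 95% intervals from edgeR; filled red points passed the adjusted threshold. The 9 lower members range from −3.77 (Cyp3a41b) to −0.36 (Cyp2j6), and the 2 higher are Cyp2b10 at 1.45 and Cyp2d9 at 0.89.

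Per kilobase of the longest protein-coding transcript, the members spanned a wide range in WT liver, from 0.127 CPM per kb for Cyp1b1 to 4521 CPM per kb for Cyp2e1. Cyp2e1, which oxidizes ethanol and paracetamol, stood above every other member. The next were Cyp2d26 at 768 CPM per kb, Cyp3a11 at 571, Cyp2c29 at 517 and Cyp2a5 at 460, whose WT ranges overlapped. In A226Y mice the order at the top was Cyp2e1 at 3766, Cyp3a11 at 662, Cyp2d26 at 561, Cyp2c29 at 366 and Cyp2a5 at 346 CPM per kb. This order depends on the length used, a check added after the values had been seen. Over the longest transcript of any kind (2802 bases for Cyp3a11 and 2822 for Cyp2c29, against 2344 and 1783), Cyp2d26 led Cyp3a11 in both genotypes, and Cyp2c37 at 374 CPM per kb stood above Cyp2c29 at 327 in WT liver. Over the union of exons, the Cyp3a member with the highest WT level was Cyp3a25 instead of Cyp3a11, and the Cyp2c member again Cyp2c37. Cyp2e1 stood first under all 3 lengths. The other subfamily leaders in WT liver, over the longest protein-coding transcript, were Cyp2f2 (322 CPM per kb), Cyp1a2 (227), Cyp2j5 (194), Cyp2b9 (189), Cyp2r1 (6.36), Cyp2g1 (1.93), Cyp2u1 (0.396) and Cyp2s1 (0.169).

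**Figure D2:**
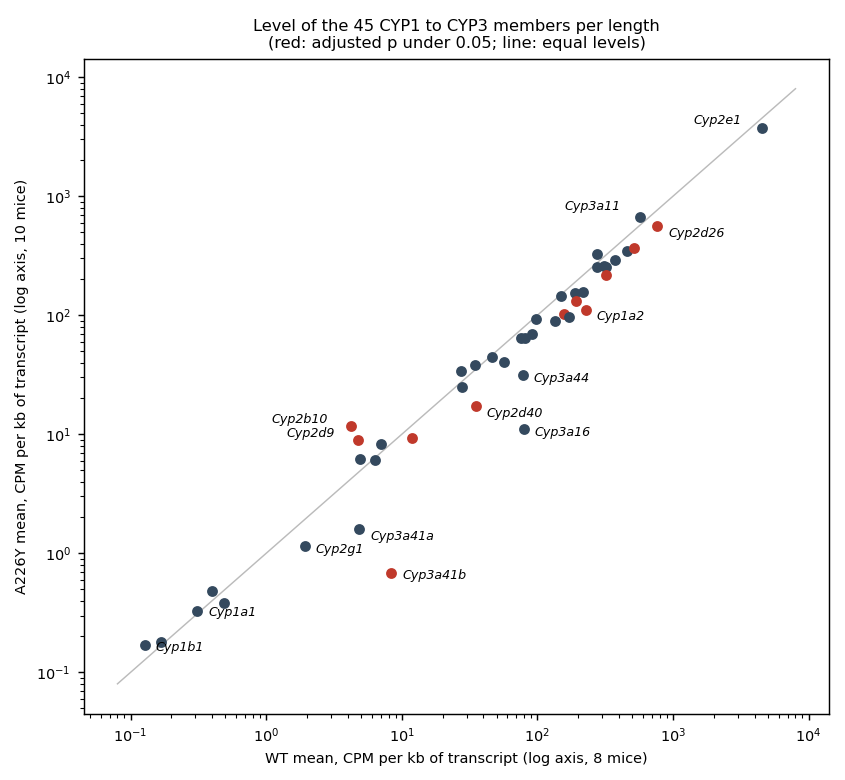
Mean level of each of the 45 members per kilobase of transcript in WT mice (horizontal, 8 mice) and A226Y mice (vertical, 10 mice), both on log axes; red points passed the adjusted threshold and the line marks equal levels. Most members lie near or just under the line, Cyp2b10 and Cyp2d9 lie above it, and Cyp3a41b, at 8.38 CPM per kb in WT and 0.681 in A226Y, lies farthest under it.

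Together the members took 1.70% ± 0.33 (SD, n = 10) of all counts in A226Y mice and 2.02% ± 0.28 (SD, n = 8) in WT mice. The difference of −0.322 percentage points is given as a description without a p-value. The range was 1.03% to 2.11% in A226Y mice and 1.6% to 2.43% in WT mice, so the groups overlapped, and 8 of the 10 A226Y mice fell short of the WT mean. Cyp2e1 alone made up 0.698% and 0.818% of all counts. The Cyp2c members took 0.259% in A226Y and 0.337% in WT, the Cyp2d members 0.161% and 0.198%, and the Cyp2a members 0.170% and 0.212%. The Cyp3a members took 0.267% in A226Y and 0.250% in WT.

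In family 1, whose members oxidize planar aromatic compounds, Cyp1a2 was lower in A226Y mice and the other members did not pass the threshold. Cyp1a2 (ENSMUSG00000032310, chr9:57676937-57683703 on the minus strand of GRCm38) is the liver enzyme that clears caffeine and activates aromatic amines. Its level ran from 110 to 320 CPM with a median of 207 in A226Y mice, and from 262 to 843 CPM with a median of 398 in WT mice. All 10 A226Y mice fell short of the WT mean and 6 of them below every WT mouse, and the highest of all was WT animal 24. The log2 fold change was −1.03 (SE 0.22, adjusted p = 0.0060, exact permutation p = 0.000754).

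Cyp1a1, its neighbour on chromosome 9 and the classical inducible target of the aryl hydrocarbon receptor, was barely expressed. It ran from 0.625 to 1.29 CPM in A226Y mice and from 0.351 to 1.29 CPM in WT mice. A226Y mice differed from WT by a log2 fold change of 0.08 with a 95% interval from −0.42 to 0.57 (adjusted p = 0.863). Cyp1b1, an enzyme mainly of tissues other than liver, had a log2 fold change of 0.43 with an interval from −0.19 to 1.05 (adjusted p = 0.347). So Cyp1a2 was the member of this family that liver expressed at a high level. It was the only one of the 3 that passed, as lower, where 7.03% of all genes tested were lower.

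In subfamily Cyp2b, Cyp2b10 was higher in A226Y mice and was the called member with the smallest adjusted p. Cyp2b10 (ENSMUSG00000030483, chr7:25897620-25926624 on the plus strand) is the standard readout of CAR activation. It ran from 11.8 to 42.2 CPM with a median of 19.2 in A226Y mice, against 2.48 to 13.7 CPM with a median of 7.23 in WT mice. Of the 10 A226Y mice, 9 lay above every WT mouse, and animal 3 lay within the WT range. This gave a log2 fold change of 1.45 (SE 0.29, adjusted p = 0.0040, exact permutation p = 0.000114), which is 2.73-fold.

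Its neighbours in the cluster on chromosome 7, Cyp2b9 and Cyp2b13, which female mouse liver expresses more than male liver, did not pass the threshold. Cyp2b9 had a log2 fold change of −0.31 with a 95% interval from −0.70 to 0.07 (adjusted p = 0.261). Cyp2b13 had −0.39 with an interval from −1.09 to 0.32 (adjusted p = 0.47). The pair, 92.74% identical in coding sequence, was joined only at the looser level of 90% identity, and its sum gave −0.34 (adjusted p = 0.291). Per length, Cyp2b9 stood at 152 CPM per kb in A226Y mice and Cyp2b10 at 11.6, so the higher Cyp2b10 remained a small part of the subfamily.

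In subfamily Cyp2d, 1 of 5 members was higher and 2 were lower, where 7.27% of all genes tested were higher and 7.03% lower. Cyp2d9 (ENSMUSG00000068086, chr15:82433437-82456845 on the plus strand), a testosterone 16-alpha-hydroxylase known from male mouse liver, ran from 7.26 to 22.9 CPM with a median of 15.5 in A226Y mice and from 3.67 to 14.9 CPM with a median of 6.83 in WT mice. In A226Y, 9 of 10 mice lay above the WT mean and 6 above every WT mouse, and animal 5 was the lowest. Between genotypes the log2 fold change was 0.89 (SE 0.26, adjusted p = 0.0281, exact permutation p = 0.00514). The call was lost when A226Y animal 11 or WT animal 13, 14, 21 or 24 was left out, with adjusted p-values up to 0.0574, and then 1 member was higher. Of the 50-base windows of its transcript, 29% also occurred in another gene, most of all Cyp2d12, which did not pass the count filter (10.7%). Its coding sequence was 92.46% identical to that of Cyp2d10, which had a mean of 423 CPM in A226Y and 452 CPM in WT mice. Joined at 90% identity, the sum of the pair gave −0.07 in edgeR (adjusted p = 0.557), and Cyp2d10 makes up most of that sum. Whether reads of Cyp2d10 were counted as Cyp2d9 was not tested.

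Cyp2d26 (ENSMUSG00000022445, chr15:82790101-82794294), second in level per length in WT liver under each of these lengths, ran from 719 to 1254 CPM with a median of 926 in A226Y mice and from 1007 to 1523 CPM with a median of 1304 in WT mice. All 10 A226Y mice fell short of the WT mean, and 7 lay below every WT mouse. Its log2 fold change was −0.45 (SE 0.10, adjusted p = 0.0079). Cyp2d40 (ENSMUSG00000068083, chr15:82759833-82764183), close to it in the cluster on chromosome 15, ran from 15.5 to 29.6 CPM with a median of 19.3 in A226Y mice and from 19.5 to 89.5 CPM with a median of 34.7 in WT mice. The A226Y mice were tightly grouped while the WT mice were spread, and 6 A226Y mice lay below every WT mouse. The log2 fold change of Cyp2d40 was −1.03 (SE 0.21, adjusted p = 0.0049). In the other 2 members of the subfamily the adjusted p was 0.402 for Cyp2d10 and 0.057 for Cyp2d22. Cyp2d22, at −0.23 on the log2 scale, passed with upper-quartile scaling (adjusted p = 0.0451), with DESeq2 (adjusted p = 0.0368) and without WT animal 6 or 21 or A226Y animal 15.

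In subfamily Cyp2c, 11 of 13 members had a log2 fold change below 0 (84.6%, beside 51.0% of all genes). In this subfamily 2 passed the threshold, both lower (15.4%, beside 7.03% of all genes). Cyp2c29 (ENSMUSG00000003053, chr19:39269405-39330713 on the plus strand), an epoxygenase of arachidonic acid and one of the members of this subfamily with high levels, ran from 394 to 947 CPM with a median of 682 in A226Y mice and from 782 to 1281 CPM with a median of 884 in WT mice. In A226Y, 8 of 10 mice lay below every WT mouse, while the other 2 lay within the WT range. In the fit, its log2 fold change was −0.50 (SE 0.15, adjusted p = 0.0365). The call was lost with an offset for transcript length, and also without WT animal 13, 21, 24 or 28 or A226Y animal 18, 23 or 32, with adjusted p-values up to 0.0847.

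Cyp2c23 (ENSMUSG00000025197, chr19:44005022-44029208 on the minus strand), another arachidonic acid epoxygenase, lies apart from the main Cyp2c cluster and shared 0.0% of its 50-base windows with other genes. It ran from 145 to 274 CPM with a median of 194 in A226Y mice and from 152 to 389 CPM with a median of 323 in WT mice. All 10 A226Y mice fell short of the WT mean, and WT animal 13, at 152 CPM, was as low as the A226Y mice. On the log2 scale the fold change was −0.61 (SE 0.17, adjusted p = 0.0194). The near-identical copies were read as sums. Cyp2c37, Cyp2c50 and Cyp2c54 together gave a log2 fold change of −0.40 (95% interval −0.75 to −0.06, adjusted p = 0.107), and Cyp2c67, Cyp2c68 and Cyp2c69 together gave −0.34 (interval −0.65 to −0.03, adjusted p = 0.130), so neither sum passed. The second sum joins genes with different values, −0.83 for Cyp2c69, −0.05 for Cyp2c68 and 0.13 for Cyp2c67. Cyp2c69 (adjusted p = 0.0661) passed without WT animal 33 (adjusted p = 0.0282) and without A226Y animal 5 (adjusted p = 0.0380). Cyp2c70, at −0.60 (adjusted p = 0.107), passed without A226Y animal 29 (−0.81, adjusted p = 0.0114) and without WT animal 6 (adjusted p = 0.0442). Cyp2c50, at −0.46 (adjusted p = 0.0799), passed with DESeq2 (adjusted p = 0.0488), with the offset for GC content (adjusted p = 0.0356) and without A226Y animal 3 (adjusted p = 0.0496).

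The 4 Cyp2a members all had log2 fold changes between −0.41 and −0.26, and none passed the threshold in edgeR, DESeq2 or limma-voom (1 had an unadjusted p under 0.05 in edgeR). With single mice left out, Cyp2a12 passed without WT animal 6 (−0.32, adjusted p = 0.0265). Cyp2a5, the coumarin 7-hydroxylase, and Cyp2a4, a steroid 15-alpha-hydroxylase, had 98.45% identical coding sequences. Their sum ran from 258 to 1686 CPM with a median of 1214 in A226Y mice and from 1091 to 2132 CPM with a median of 1380 in WT mice, with the lowest value in A226Y animal 29. The log2 fold change of the sum was −0.38 with a 95% interval from −0.89 to 0.13 (adjusted p = 0.303). The sum of Cyp2a12 and Cyp2a22 gave −0.28 (adjusted p = 0.199).

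Cyp2e1, the most abundant member, did not pass. It ran from 3026 to 8628 CPM with a median of 7105 in A226Y mice and from 6043 to 10650 CPM with a median of 8096 in WT mice, and 8 of 10 A226Y mice fell short of the WT mean. A226Y mice differed from WT by a log2 fold change of −0.26 with a 95% interval from −0.58 to 0.06 (adjusted p = 0.259). Cyp2f2 (ENSMUSG00000052974, chr7:27119909-27133660), which activates naphthalene and in liver marks the hepatocytes around the portal tract, was lower. It ran from 279 to 616 CPM with a median of 399 in A226Y mice and from 334 to 807 CPM with a median of 634 in WT mice.

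Against WT, Cyp2f2 gave a log2 fold change of −0.58 (SE 0.15, adjusted p = 0.0173). In A226Y, 9 of 10 mice lay below the WT mean, and animal 5 stood apart above the rest. An antisense gene, Gm15883, covers 13.5% of the exon bases of Cyp2f2, and counts that carry no strand cannot separate the pair. Cyp2g1, mainly an olfactory enzyme, had a log2 fold change of −0.74 with a 95% interval from −1.52 to 0.03 (adjusted p = 0.185), and passed without A226Y animal 5 (−1.02, adjusted p = 0.0483).

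In subfamily Cyp2j, epoxygenases of arachidonic acid, 2 of 3 members were lower (66.7%, beside 7.03% of all genes). Cyp2j5 (ENSMUSG00000052520, chr4:96628773-96664154 on the minus strand) ran from 192 to 419 CPM with a median of 312 in A226Y mice and from 312 to 564 CPM with a median of 457 in WT mice. All 10 A226Y mice fell short of the WT mean and 5 lay below every WT mouse. This gave a log2 fold change of −0.54 (SE 0.13, adjusted p = 0.0109). Cyp2j6 (ENSMUSG00000052914, chr4:96516138-96553661) ran from 24.9 to 39.5 CPM with a median of 34.4 in A226Y mice and from 32.2 to 52.3 CPM with a median of 43.8 in WT mice. Between genotypes the log2 fold change was −0.36 (SE 0.09, adjusted p = 0.0158), with all 10 A226Y mice below the WT mean. Cyp2j9, which lies between them on chromosome 4, had a log2 fold change of 0.35 with an interval from −0.10 to 0.80 (adjusted p = 0.294).

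The single members with known roles outside drug clearance did not pass. Cyp2r1, the vitamin D 25-hydroxylase, had a log2 fold change of −0.07 with a 95% interval from −0.25 to 0.11 (adjusted p = 0.613). Cyp2u1, a fatty acid hydroxylase, had 0.27 with an interval from −0.19 to 0.74 (adjusted p = 0.438), and Cyp2s1 had 0.07 with an interval from −0.71 to 0.85 (adjusted p = 0.922).

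**Figure D3:**
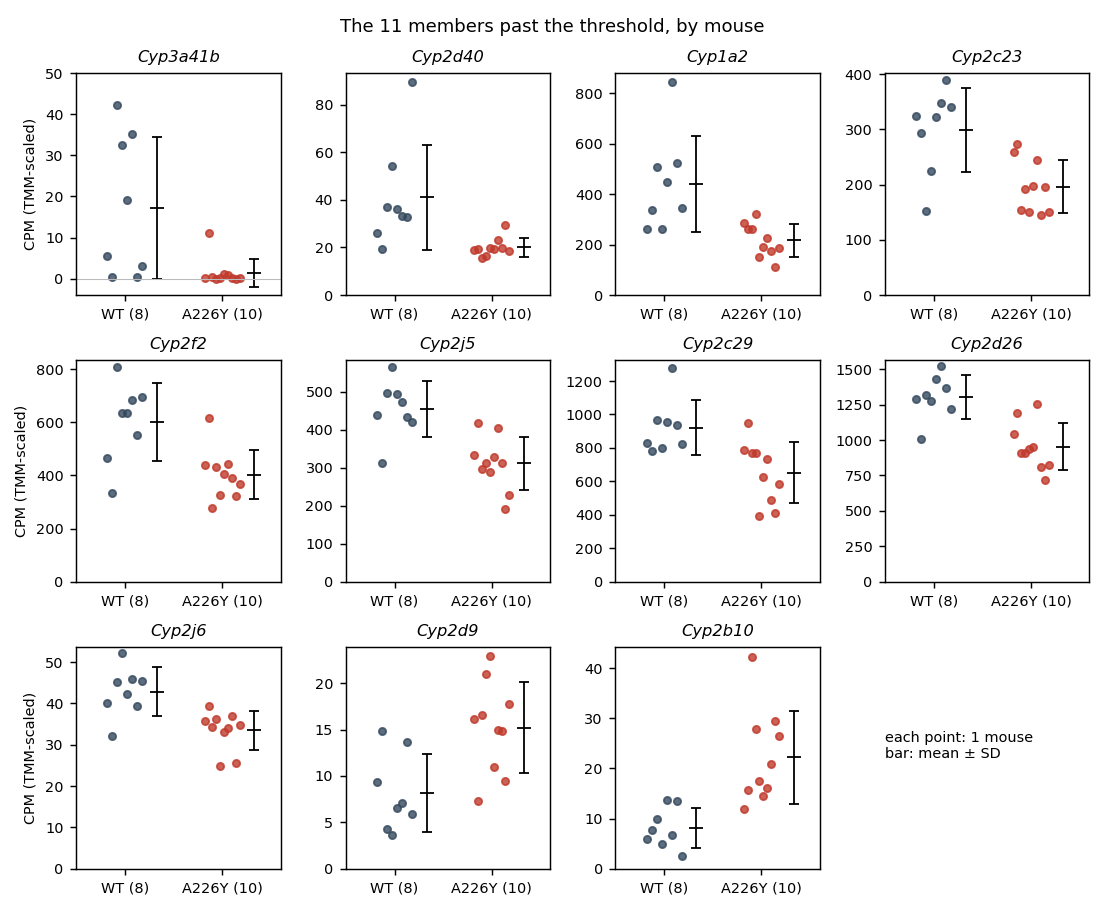
Level in CPM (vertical axes, linear) of the 11 members past the threshold in each WT mouse (8 dark points) and A226Y mouse (10 red points), with the mean and SD at the right of each group. No panel shows groups fully apart; Cyp2b10 comes nearest, with 9 of 10 A226Y mice above every WT mouse, and Cyp3a41b lies near 0 in all A226Y mice but animal 5.

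Subfamily Cyp3a, the main drug-oxidizing P450s of family 3, had 1 lower member of 8 (12.5%, beside 7.03% of all genes). This member, Cyp3a41b, met the count filter only through the WT mice. The total of the subfamily did not pass the threshold. All 8 members summed ran from 1806 to 3655 CPM with a median of 2501 in A226Y mice and from 1827 to 3154 CPM with a median of 2570 in WT mice. The log2 fold change of the total was 0.05 with a 95% interval from −0.23 to 0.33 (SE 0.13, adjusted p = 0.847). Its sign was negative with surrogate variables, with an offset for GC content, and without A226Y animal 11 or 22 or WT animal 14. With the near-identical copies Cyp3a11, Cyp3a41a, Cyp3a41b and Cyp3a44 summed, the log2 fold change was 0.09 (interval −0.34 to 0.52, adjusted p = 0.805), and Cyp3a11 makes up most of that sum.

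Cyp3a11, the PXR target that stands closest to the human drug-metabolizing CYP3A enzymes, ran from 802 to 2487 CPM with a median of 1442 in A226Y mice and from 739 to 2282 CPM with a median of 1222 in WT mice. Its log2 fold change was 0.21 with an interval from −0.30 to 0.73 (adjusted p = 0.601). Cyp3a25 and Cyp3a59, 97.48% identical in their coding sequences, gave as a sum 0.25 with an interval from −0.01 to 0.52 (adjusted p = 0.191). Cyp3a13, which lies far from the other members on chromosome 5, had −0.06 with an interval from −0.35 to 0.23 (adjusted p = 0.810). These 4 carried most of the Cyp3a counts, and each overlapped widely between genotypes.

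The other 4 copies, Cyp3a16, Cyp3a41a, Cyp3a41b and Cyp3a44, are known as genes of female or fetal mouse liver. Cyp3a41b (ENSMUSG00000075552, chr5:145558664-145584730) was at 0 counts in A226Y animals 11 and 29, had a median of 0.184 CPM over the A226Y mice and reached 11.2 CPM in animal 5. In WT mice it ran from 0.290 to 42.2 CPM with a median of 12.3, and animals 6 and 28 lay at 0.290 and 0.383 CPM, among the A226Y mice. Cyp3a41b reached 10 counts in 4 of 10 A226Y and 7 of 8 WT mice and so was tested only because of its level in WT mice, which bears on its fold change and p-value. In the fit, its log2 fold change was −3.77 (SE 0.996, adjusted p = 0.0167, exact permutation p = 0.00571), and it was −5.78 without A226Y animal 5. limma-voom gave −4.91 with an adjusted p of 0.0742.

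Because reads can hardly be split between Cyp3a41a and Cyp3a41b, their sum is the safer value. It ran from 0.118 to 23 CPM with a median of 1.86 in A226Y mice and from 2.22 to 59.1 CPM with a median of 22.7 in WT mice. All 10 A226Y mice fell short of the WT mean and 6 lay below every WT mouse. The log2 fold change of this sum, which was added after the values had been seen, was −2.58 (SE 0.72, adjusted p = 0.0225), and without WT animal 13 the adjusted p was 0.0518. With surrogate variables the sum stood at −0.43 (SE 0.65, adjusted p = 0.803), so its call was lost in that fit too. Cyp3a41a alone had a log2 fold change of −1.63 (SE 0.58, adjusted p = 0.0635). It passed with limma-voom (−2.41, adjusted p = 0.0187), without A226Y animal 5 (adjusted p = 0.0158) and without WT animal 6 (adjusted p = 0.0347), and stood at −0.30 with surrogate variables.

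Cyp3a16 and Cyp3a44, which reads can tell apart better, did not pass in edgeR but had the same mice at their extremes. Cyp3a16 ran from 0.294 to 110 CPM with a median of 3.37 in A226Y mice and from 4.93 to 479 CPM with a median of 93.8 in WT mice. The log2 fold change was −2.86 (SE 0.97, 95% interval −4.88 to −0.83, adjusted p = 0.0532), and it passed without WT animal 6 or 28 and, at −3.93 (adjusted p = 0.0100), without A226Y animal 5. It also passed with DESeq2 (−2.83, adjusted p = 0.0258) and with limma-voom (−4.04, adjusted p = 0.0181), and stood at −0.97 with surrogate variables. Cyp3a44 ran from 8.96 to 293 CPM with a median of 31.0 in A226Y mice and from 43.0 to 307 CPM with a median of 155 in WT mice. A226Y mice differed from WT by a log2 fold change of −1.32 (SE 0.56, 95% interval −2.49 to −0.15, adjusted p = 0.120). Without A226Y animal 5 alone it moved to −2.09 and passed (adjusted p = 0.0050). Cyp3a44 passed with limma-voom as well (−1.70, adjusted p = 0.0420) and stood at −0.22 with surrogate variables.

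The mice were not uniform within a genotype. A226Y animal 5 held 110 CPM of Cyp3a16, 11.9 of Cyp3a41a, 11.2 of Cyp3a41b and 293 of Cyp3a44, all within the WT range. WT animals 6 and 28 held 4.93 and 8.78 CPM of Cyp3a16 and 44.4 and 43.0 CPM of Cyp3a44, near the A226Y mice. These 2 WT mice also had the highest Cyp3a11 of their genotype, 2282 and 2000.1 CPM, and the highest Cyp2d9, 14.9 and 13.6 CPM, whereas A226Y animal 5 had the lowest Cyp2d9 of its genotype.

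**Figure D4:**
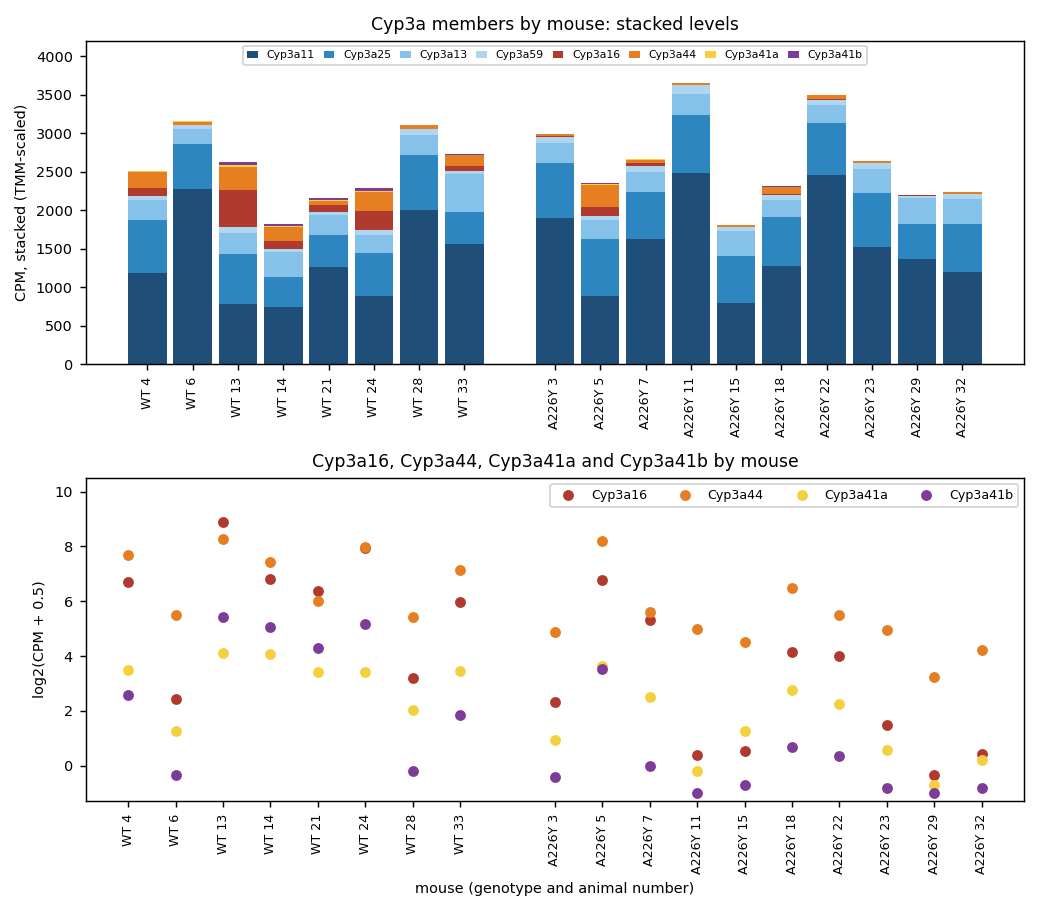
Upper panel, stacked CPM of the 8 Cyp3a members in each of the 8 WT and 10 A226Y mice; lower panel, log2(CPM + 0.5) of Cyp3a16, Cyp3a44, Cyp3a41a and Cyp3a41b in the same mice. The stacks reach 1827 to 3154 CPM in WT and 1806 to 3655 CPM in A226Y, while the 4 copies in the lower panel are low in WT animals 6 and 28 and high in A226Y animal 5.

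A chosen list of 10 members known to be higher in female than in male mouse liver held these 4 copies with Cyp2a4, Cyp2b9, Cyp2b13, Cyp2c40, Cyp2c69 and Cyp2g1. All 10 had log2 fold changes below 0 (100%, beside 51.0% of all genes), from −3.77 to −0.15. The median was −0.79, beside −0.23 for the 35 members outside the list and −0.0044 for all genes. Of the 10, 1 passed the threshold, Cyp3a41b, which met the count filter only through WT mice. With surrogate variables, Cyp2b13 and Cyp2g1 had values of 0.022 and 0.36. The list was drawn up with results of these data known and its members share clusters and sequence, so the counts are a description. Of 8 listed members known from hepatocytes around the central vein, 7 had values below 0 (87.5%, beside 51.0% of all genes), with a median of −0.44. Of the 8, 2 passed as lower, Cyp1a2 and Cyp2c29 (25.0%, beside 7.03%). Cyp2c37, Cyp2c50 and Cyp2c54 in this list are near-identical copies whose sum did not pass in edgeR (adjusted p = 0.107). This list too was drawn up with results of these data known, so its counts are a description. Cyp2f2, the periportal member, was lower as well.

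The 5 genes listed as redox partners of P450 enzymes are electron carriers and the heme-binding Pgrmc1. Of the 5, 3 were lower (60.0%, where 7.03% of all genes tested were lower) and none was higher. Cyb5a, cytochrome b5, ran from 606 to 936 CPM with a median of 808 in A226Y mice and from 806 to 1320 CPM with a median of 1102 in WT mice. This gave a log2 fold change of −0.44 (SE 0.09, adjusted p = 0.0057). Cyb5r3, the reductase of cytochrome b5, had −0.42 (adjusted p = 0.0021), with 8 of 10 A226Y mice below every WT mouse. Pgrmc1, a heme-binding partner of P450s, had −0.40 (adjusted p = 0.0052), with 9 of 10 A226Y mice below every WT mouse. Por, the P450 oxidoreductase, had 0.13 with a 95% interval from −0.12 to 0.38 (adjusted p = 0.482).

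Of the 8 genes of heme synthesis, 1 was lower (12.5%, beside 7.03% of all genes): Ppox, with a log2 fold change of −0.24 (adjusted p = 0.0088). Alas1, which sets the rate of the pathway, had −0.25 with an interval from −0.55 to 0.05 (adjusted p = 0.244). None of the 4 genes of heme breakdown passed in edgeR, and 0 had an unadjusted p under 0.05.

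Among the regulators, Nr1i3, which encodes CAR, passed as lower in A226Y mice, though narrowly. It ran from 202 to 494 CPM with a median of 426 in A226Y mice and from 427 to 710 CPM with a median of 518 in WT mice. All 10 A226Y mice fell short of the WT mean, and the log2 fold change was −0.46 (SE 0.14, adjusted p = 0.0321). The call was lost with an offset for length (adjusted p = 0.0531) or GC content (adjusted p = 0.0697), and without A226Y animal 7, 11 or 15 or WT animal 24, 28 or 33, with adjusted p-values up to 0.0744. Of the 9 genes of the CAR and PXR axis, 2 were lower (22.2%, beside 7.03% of all genes; Nr1i3 and Rxrg, the latter at −0.47 with an adjusted p of 0.0226) and 1 was higher (11.1%, beside 7.27%; Ncoa2, a coactivator, at 0.22 with an adjusted p of 0.0087). Rxrg lost its call without WT animal 13 or 14 (adjusted p-values up to 0.0510), and Ncoa2 with the length offset (adjusted p = 0.128). Nr1i2, which encodes PXR, had 0.02 with an interval from −0.14 to 0.18 (adjusted p = 0.883).

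Of the 5 tested genes of the aryl hydrocarbon receptor axis, 1 was lower (20%, beside 7.03% of all genes): Arnt, the partner of the receptor, at −0.30 (adjusted p = 0.0077). Ahr itself had −0.08 with an interval from −0.33 to 0.17 (adjusted p = 0.683), and Ahrr did not reach the count filter. None of the 3 PAR bZIP factors, which carry daily rhythms to P450 genes, passed in edgeR, and 0 had an unadjusted p under 0.05.

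Of 14 factors of liver identity and of the sex pattern, 3 were lower (21.4%, beside 7.03% of all genes) and 1 was higher (7.14%, beside 7.27%). Ghr, the growth hormone receptor, ran from 212 to 400.5 CPM with a median of 322 in A226Y mice and from 342 to 573 CPM with a median of 489 in WT mice. Between genotypes the log2 fold change was −0.59 (SE 0.12, adjusted p = 0.0036), with 7 of 10 A226Y mice below every WT mouse. Stat5a, a transducer of growth hormone signals, had −0.58 (adjusted p = 0.0056), and Foxa2 had −0.33 (adjusted p = 0.0148). Stat5b, at a mean of 48.1 CPM in A226Y and 52.2 CPM in WT mice against 10.3 and 15.4 CPM for Stat5a, had −0.12 (adjusted p = 0.151). Neither Cux2, at −0.44 (adjusted p = 0.0569), nor Bcl6, at 0.08 (adjusted p = 0.857), passed. Trim24, a cofactor of nuclear receptors, was higher at 0.29 (adjusted p = 0.0403), but lost its call without A226Y animal 3, 7, 11, 18, 22, 23 or 32 or WT animal 14, 21, 24, 28 or 33 (adjusted p-values up to 0.0826), without the count filter and with the length offset. Hnf4a had 0.08 with an interval from −0.11 to 0.28 (adjusted p = 0.590).

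**Figure D5:**
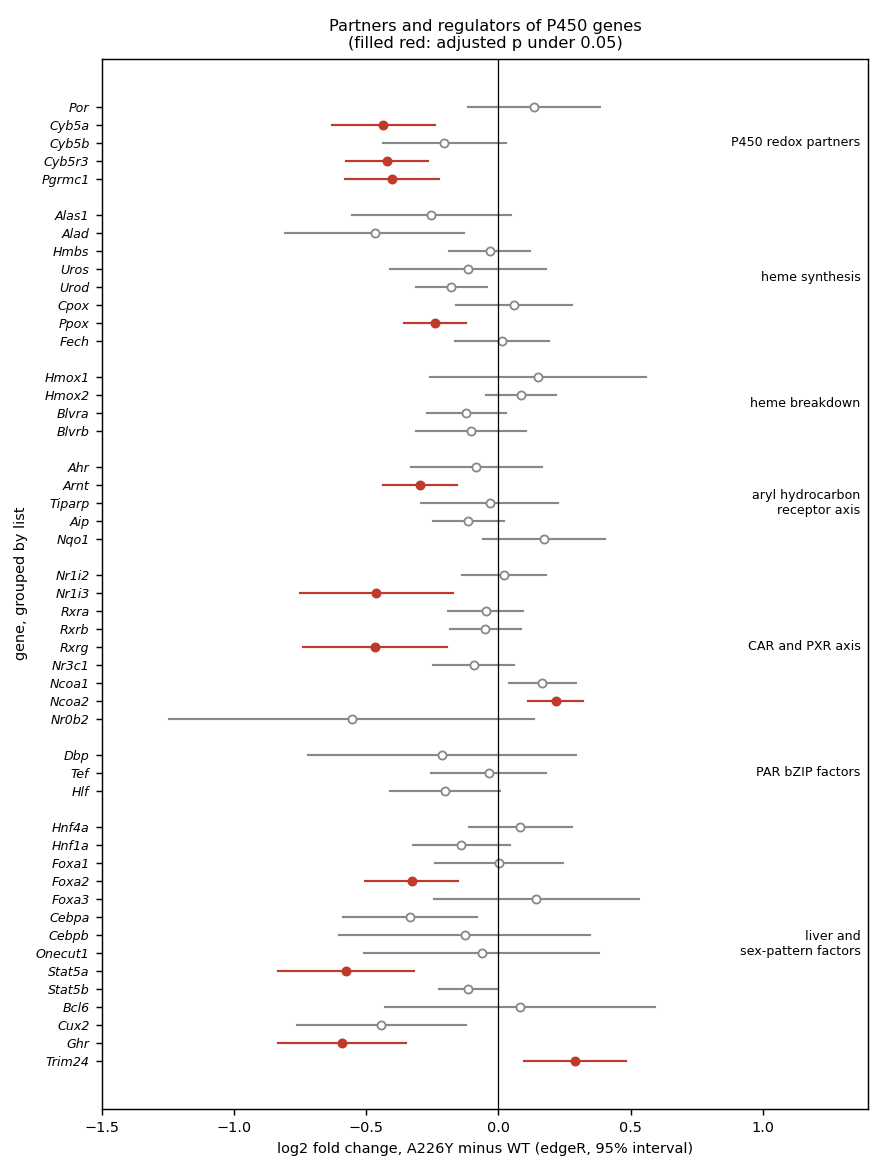
Log2 fold change (A226Y minus WT, horizontal axis) with 95% intervals from edgeR for the redox partners, heme genes and regulators, grouped by list; filled red points passed the adjusted threshold. The 3 lower redox partners lie between −0.44 and −0.40 while Por lies at 0.13, and Ncoa2 and Trim24 are the higher genes, at 0.22 and 0.29.

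Of the 24 tested genes of the remaining P450 families, 2 were higher and 2 were lower (8.33% each, near the 7.27% and 7.03% of all genes), 12 had values above 0 and 12 below, with a median of 0.0037 on the log2 scale. The higher genes were Cyp26b1, a retinoic acid hydroxylase, at 0.75 (adjusted p = 0.0030), and Cyp4a31, of the fatty acid omega-hydroxylases, at 0.94 (adjusted p = 0.0256). The lower were Cyp4f14 at −0.64 (adjusted p = 0.0021) and Cyp46a1, the cholesterol 24-hydroxylase, at −0.96 (adjusted p = 0.0274). Cyp4a31 lost its call without WT animal 14, 21 or 24 (adjusted p-values up to 0.0572), and Cyp46a1 without A226Y animal 7 or WT animal 21 (up to 0.0759) and with the GC offset. Whether these families differ from families 1 to 3 was not tested. With surrogate variables 0 of the 16 called genes among the partners, regulators and remaining families passed in edgeR, and all 16 kept their direction.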

How the data were processed

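Liver RNA of 10 A226Y and 8 WT mice was analysed, 1 library each. The authors deposited raw whole-number counts per Ensembl gene for each mouse, not normalized. The paper's methods name RSEM and an Ensembl annotation on an older mouse build, whereas the submitters' processing notes name bcl2fastq, fastp, STAR, featureCounts and GRCm38. Which of them gave the deposited counts is not settled here. No column lacked a sample. Of 22524 identifiers, 22291 were matched to GENCODE M21. The mouse is the replicate, and pairs of one genotype differed beyond sampling noise (chi-square over its degrees of freedom 19.7 or more), so no pair was a repeat deposit.

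From the deposited counts, genes that reached 10 counts in 50% or more of either genotype were fitted with edgeR 4.0.16 (R 4.3.3; TMM, quasi-likelihood, no covariates, common coefficient of variation 0.194), with Benjamini-Hochberg adjustment over all 13353 genes. The standard error is the fold change divided by the root of the F statistic. Permutation tests used log2(CPM + 0.5). Copies were joined at 95% identity of their coding sequences, since the planned protein sequences were not used here, and their summed counts replaced them in the fit. The sums of Cyp2b9 with Cyp2b13 and of Cyp2d9 with Cyp2d10 were joined at 90% identity instead. The level per length divides CPM by kilobases of the longest protein-coding transcript in GENCODE M21, although the plan named kilobases of exon. The union of exons and the longest transcript of any kind were therefore tried as well, after the values had been seen. Genes whose exons overlap a member (9 genes, 8 members) were not in the count lists, and strand is unknown.

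Members and lists were chosen with earlier results of these data known. Named were every member past the threshold, the highest per length in each subfamily, a fixed list of well-known members, every sum of copies, Rps2, and partner genes past the threshold with Por, Alas1, Ahr, Nr1i2, Nr1i3 and Hnf4a. Members named otherwise (among them Cyp2c70, Cyp2d10, Cyp2d22 and Cyp2j9) and the genes Stat5b, Cux2 and Bcl6 were chosen after their values were seen. Alternatives were RLE, upper-quartile and library-size scaling, other filters, DESeq2 1.42.0, limma-voom 3.58.1, 4 surrogate variables (sva 3.50.0), loess offsets for length or GC content (pseudocount 0.5, span 0.3, 3 iterations; known for 99.6% of tested genes), and each mouse left out. The procedures were tested on simulated data.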

Additional observations from a re-analysis of the deposited data

Results flagged for a closer look

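In 18 of 108 groups (a member or a sum in the mice of 1 genotype) the highest or lowest mouse stood apart from the others by Dixon's ratio, which chance gives in about 1 of 20 groups. Related copies and shared mice make these groups dependent. A226Y animal 5 stood high in Cyp3a16 (110 CPM), Cyp3a41a (11.9 CPM), Cyp3a41b (11.2 CPM), Cyp3a44 (293 CPM), the sum of Cyp3a41a and Cyp3a41b (23 CPM) and Cyp2f2 (616 CPM). A226Y animal 29 stood low in Cyp2a12 (293 CPM), Cyp2c40 (14.5 CPM), Cyp2e1 (3026 CPM), Cyp3a25 (452 CPM) and the sum of Cyp3a25 and Cyp3a59 (487 CPM), and high in Cyp2c70 (336 CPM). WT animal 33 stood high in Cyp2c50 (651 CPM), Cyp2c54 (249 CPM) and Cyp3a13 (496 CPM), WT animal 24 in Cyp1a2 (843 CPM) and Cyp2c29 (1281 CPM), and WT animal 13 in Cyp2a4 (894 CPM). A226Y animal 29 was the lowest of its genotype in 23 of the 45 members and WT animal 6 in 16, while WT animal 13 was the highest in 14 and A226Y animal 5 in 13. The total counts of A226Y animals 5 and 29 were 23850565 and 32045654.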

How the results depend on the processing

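The 11 called members kept their direction under every alternative that gave them a value and with every mouse left out, and 9 of them passed with each mouse left out (all but Cyp2c29 and Cyp2d9). With surrogate variables, 0 members were higher and 0 lower. With single mice left out, 1 to 2 members were higher and 8 to 14 lower, and the difference in the share of counts lay between −0.382 and −0.248 percentage points. Without both A226Y animal 29 and WT animal 33, a setting chosen after seeing the data, 13 members passed, all 11 among them, where 17.8% of all genes passed. DESeq2 called 14 members, where 18.1% of all genes passed, and limma-voom 13, where 14% passed. Values that changed sign came from members and sums that had not passed. With surrogate variables these were, as log2 fold changes, Cyp1a1 at −0.16, Cyp2a22 at 0.16, Cyp2b13 at 0.022, Cyp2c38 at 0.0087, Cyp2g1 at 0.36, Cyp2j9 at −0.0079, Cyp2s1 at −0.85, Cyp3a11 at −0.22, Cyp3a13 at 0.058, the sum of Cyp2a12 and Cyp2a22 at 0.018, that of Cyp3a11, Cyp3a41a, Cyp3a41b and Cyp3a44 at −0.19, and that of all 8 Cyp3a members at −0.11. Cyp2c68 stood at 0.021 with the length offset, Cyp2s1 at −0.041 with limma-voom, Cyp3a13 at 0.059 without both mice, all 8 Cyp3a at −0.024 with the GC offset, and the sum of 4 copies at −0.016 when Cyp3a16 joined it at 90% identity. With single mice left out, Cyp1a1 ran from −0.031 to 0.19, Cyp2c68 from −0.064 to 0.0062, Cyp2s1 from −0.059 to 0.19, Cyp3a13 from −0.13 to 0.094 and all 8 Cyp3a from −0.015 to 0.098. Partner genes and the remaining P450 families were checked after their values had been seen. The 16 called ones kept their direction under every alternative, 0 passed with surrogate variables, and 13 to 16 passed under each of the others and with each mouse left out. Calls were lost for Trim24 without the count filter, for Nr1i3, Ncoa2 and Trim24 with the length offset, for Nr1i3 and Cyp46a1 with the GC offset, and with some single mice left out for Nr1i3, Rxrg, Trim24, Cyp4a31 and Cyp46a1. Among those not called, the sign changed with surrogate variables for Ahr (0.10), Hnf4a (−0.050), Nr1i2 (−0.049) and Por (−0.19), and without both mice for Ahr (0.011), while Nr1i2 ran from −0.0096 to 0.046 with single mice left out. The cause of these shifts was not tested. The sum of Cyp3a41a and Cyp3a41b has no value under the filter of 10 counts in every mouse. No paired analysis was possible because the genotypes share no animal number. Depth limits the members near 1 CPM, such as Cyp1a1, Cyp1b1 and Cyp2s1.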
